A study of Mus musculus with 6 samples.

Results

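The 10 genes described here encode chains of collagen VI (*Col6a1*, *Col6a2*, *Col6a3* and *Col6a6*), collagen VIII (*Col8a1* and *Col8a2*) and collagens that sit on the surface of other fibrils or of the cell (*Col12a1*, *Col14a1*, *Col16a1* and *Col23a1*). They were taken by name from a table of 34745 mouse genes. RNA-seq had been performed on cardiac fibroblasts from the left ventricle of KDM5B-KO mice and of WT littermates, in 3 libraries labelled KO and 3 labelled WT. All animals were male C57BL/6 mice of 8 to 10 weeks that had undergone MI (myocardial infarction) by ligation of a coronary artery, and cells were isolated on Day 7. KDM5B is a histone demethylase, and the knockout was made with CRISPR/Cas9 by removing bases that contain the JmjC domain, with a frameshift. The deletion was carried by every cell of the animal and not by fibroblasts alone, and the WT littermates carried no deletion but the same MI. KO and WT below stand for the labels of the libraries.

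Collagen VI is built from 3 different chains into beaded microfilaments that lie around cells and link the basement membrane to the interstitial matrix. Collagen VIII is a short-chain collagen that forms networks and is known from vessel walls and from remodeled heart. FACITs (fibril-associated collagens with interrupted triple helices), such as collagens XII and XIV, bind to the surface of collagen I fibrils and influence how fibrils are spaced. Collagen XVI is grouped with the FACITs. The label of the set does not cover all 10 genes, because collagen XXIII, the product of *Col23a1*, is a transmembrane collagen and belongs to none of the 3 classes.

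The start sites are shown first, for *Col6a1*, *Col6a2*, *Col6a3* and the most abundant chain, *Col8a1*. All of these were lower in KO, which does not set them apart, since 8 of the 9 chains tested were called lower. RefSeq promoter windows of 300 bases (250 before and 50 after the start site, build GRCm38.p6) were matched by symbol to 8 of the 10 genes, all but *Col12a1* and *Col14a1*. *Col6a1* and *Col6a2* lie on the minus strand of chromosome 10, with 85161 bp between them. The window of *Col6a1* is chr10:76725995-76726294, that of *Col6a2* is chr10:76623355-76623654 (the one of its 2 windows with more matches), that of *Col6a3* is chr1:90843922-90844221 and that of *Col8a1* is chr16:57754688-57754987, all on the minus strand. They are written 5′ to 3′ in the direction of the gene, and capitals mark matches to the motifs searched. The start site of the *Col6a1* window lies 124 bp from the deposited start of the gene, and that of the printed *Col6a2* window 226 bp. The *Col6a2* window not printed lies at the deposited start and holds 1 GC box.
Col6a1: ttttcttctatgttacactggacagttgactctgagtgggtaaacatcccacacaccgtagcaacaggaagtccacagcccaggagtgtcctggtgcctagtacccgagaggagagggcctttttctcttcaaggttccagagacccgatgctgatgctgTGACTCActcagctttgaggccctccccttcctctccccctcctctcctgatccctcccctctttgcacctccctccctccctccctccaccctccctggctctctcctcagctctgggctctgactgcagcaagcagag
Col6a2: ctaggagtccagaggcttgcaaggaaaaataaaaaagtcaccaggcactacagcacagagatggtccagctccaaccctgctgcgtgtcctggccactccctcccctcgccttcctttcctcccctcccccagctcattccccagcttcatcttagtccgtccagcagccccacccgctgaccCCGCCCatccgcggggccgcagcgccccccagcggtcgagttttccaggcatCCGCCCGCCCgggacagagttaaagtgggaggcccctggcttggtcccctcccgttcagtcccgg
Col6a3: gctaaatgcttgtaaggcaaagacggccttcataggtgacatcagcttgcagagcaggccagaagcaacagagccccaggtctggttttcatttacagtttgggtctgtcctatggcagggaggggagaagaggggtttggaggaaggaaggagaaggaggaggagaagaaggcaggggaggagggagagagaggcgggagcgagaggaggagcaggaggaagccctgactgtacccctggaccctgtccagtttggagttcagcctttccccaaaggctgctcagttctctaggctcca
Col8a1: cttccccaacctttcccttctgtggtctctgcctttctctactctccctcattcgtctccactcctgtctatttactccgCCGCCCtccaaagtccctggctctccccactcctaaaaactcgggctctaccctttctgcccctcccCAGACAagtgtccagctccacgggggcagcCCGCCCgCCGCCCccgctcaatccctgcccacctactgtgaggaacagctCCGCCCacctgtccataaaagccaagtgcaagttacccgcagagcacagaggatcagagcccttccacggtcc
In *Col6a1* the capitals are an AP-1 motif (TGACTCA), which begins 90 bases before the start site. In *Col6a2* they are 3 GC boxes (GGGCGG, here on the opposite strand as CCGCCC), which begin 67, 15 and 11 bases before the start site, the last 2 overlapping. In *Col8a1* they are a SMAD element (CAGACA) that begins 103 bases before the start site and 4 GC boxes. The window of *Col6a3* held none of the motifs searched.

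Both strands were searched for AP-1 (TGACTCA), CRE (TGACGTC), the SMAD element (CAGACA), the TATA box (TATAAA), the GC box (GGGCGG) and the CArG box. No motif contains another, and overlapping matches were each counted. A GC box was present in 6 of the 8 genes (*Col6a2*, *Col6a6*, *Col8a1*, *Col8a2*, *Col16a1* and *Col23a1*) and in 35.7% of all 32851 windows of this length. AP-1 was present in *Col6a1* alone and in 5.20% of all windows, and the SMAD element in *Col8a1* alone and in 21.04% of all windows. CRE, the TATA box and the CArG box were in none of the 8 genes, and in 3.21%, 13.6% and 1.63% of all windows. These matches describe letters in the windows and were not tested against the expression values.

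The libraries held 12025403 to 15329427 counts on genes, and 14084 genes passed the filter on low counts. *Kdm5b* itself gave 98.1, 107 and 105 CPM (counts scaled to library size, with TMM factors) in KO and 108, 129 and 123 CPM in WT. These groups did not overlap, and the log2 fold change was -0.22 (SE 0.07, edgeR adjusted p = 0.0574). It passed the threshold in 3 of 16 alternative analyses of *Kdm5b*, and its sign turned with the scaling on fibroblast markers described with the chains. *Kdm5b* was thus 13.9% lower with TMM scaling, so the counts do not show a loss of *Kdm5b* RNA in the libraries labelled KO, and the labels were not checked by them. The deposited table does not measure the deleted bases by themselves. Of 10 fibroblast markers, *Vim* (vimentin) and *Pdgfra*, a surface receptor of fibroblasts, were picked as examples. They averaged 1286 and 229 CPM in WT, and the sum of the whole list is given after the chains. Markers of other cells were also present, with sums in WT of 1121 to 1133 CPM for 12 cardiomyocyte genes and of 1529 to 1628 CPM for 12 macrophage genes. Sums over a list of genes, here and below, are CPM on library totals, without TMM factors.

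To place the chains beside each other, levels are given as FPKM, fragments scaled to gene length and library size. *Col8a1* was the most abundant chain, with 129, 143 and 137 FPKM in KO and 167, 169 and 164 FPKM in WT. *Col12a1*, the chain of the FACIT collagen XII, was second, with 55.0, 64.9 and 64.7 FPKM in KO and 74.7, 80.7 and 77.3 FPKM in WT. The KO and WT values of both chains were apart, and every WT value of *Col8a1* was above every WT value of *Col12a1*. In WT, *Col6a1* followed with 51.2 ± 2.00 FPKM (SD, n = 3), *Col14a1* with 47.8 ± 0.624 FPKM and *Col16a1* with 35.4 ± 1.3 FPKM. *Col6a2* at 16.2 ± 0.120 FPKM and *Col6a3* at 15.9 ± 0.547 FPKM could not be ordered, since the *Col6a3* libraries (15.6 to 16.5 FPKM) enclosed those of *Col6a2* (16.1 to 16.3 FPKM). *Col8a2*, the other chain of collagen VIII, was at 6.12 ± 0.389 FPKM and *Col23a1* at 0.849 ± 0.118 FPKM. The order of the means in KO differed in 1 place, with *Col6a3* (12.0, 12.7 and 12.6 FPKM) above *Col6a2* (11.6, 12.2 and 11.9 FPKM).

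**Figure D1:**
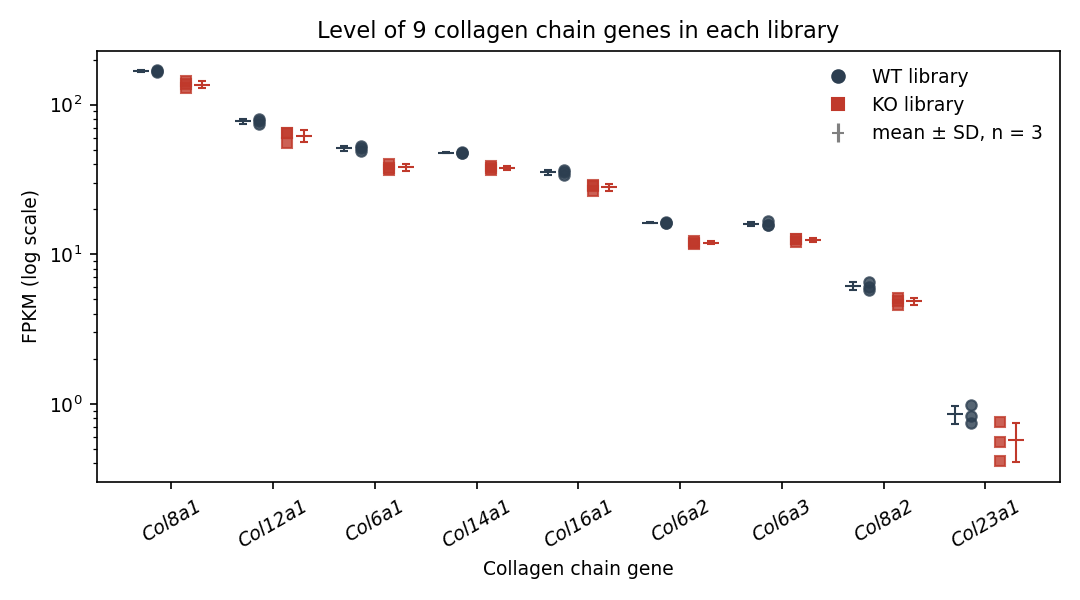
Levels of 9 collagen chain genes as deposited FPKM (vertical axis, log scale), with 1 point for each of 3 WT and 3 KO libraries and the mean ± SD beside them. *Col8a1* is highest at 167 FPKM in WT and *Col23a1* lowest of those drawn at 0.849 FPKM, and the KO and WT points are apart for every chain except *Col23a1*.

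*Col6a6*, a chain of collagen VI that resembles *Col6a3*, was near the limit of detection. It had 0, 2 and 3 counts in KO and 4, 0 and 2 counts in WT. All but 1 of these values lie at or below the 3 counts that a count of 0 allows, so no fold is given, and the gene did not pass the filter. *Col23a1* was also low, with 54, 33 and 51 counts in KO and 84, 74 and 63 counts in WT. The remaining 8 chains were measured far above this limit, from 6.12 FPKM upward in WT, and their CVs within a label ran from 0.742% to 9.19%.

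The order of the levels rests in part on gene length. The length behind the deposited FPKM was 1.0 to 1.82 times that of the longest annotated transcript, and the difference varied by gene, from 5108 against 5108 bp for *Col8a1* to 9488 against 5206 bp for *Col16a1*. Divided by the longest transcript, *Col8a1* (167 on the FPKM scale) and *Col12a1* (119 ± 4.65) stayed at the top in WT. *Col14a1* (68.9 ± 0.899) and *Col16a1* (64.5 ± 2.37) then came before *Col6a1* (56.6 ± 2.20). The place of *Col6a1* beside *Col14a1* and *Col16a1* was therefore not settled, whereas *Col14a1* was above *Col16a1* by either length. *Col6a2* (27.8 ± 0.207), *Col6a3* (21.5 ± 0.740) and *Col8a2* (6.61 ± 0.420) followed below these chains by either length.

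The main comparison asked whether the chains differed between the KO and the WT fibroblasts after MI. All 8 chains that were well measured were lower in KO, by 20.3% to 28.0%. With edgeR's quasi-likelihood test and an adjusted p under 0.05 over all 14084 genes, 8 of the 9 chains tested were lower and 0 were higher. Over all genes tested, 12.5% were lower and 17.7% were higher by the same rule. At an unadjusted p under 0.05 the numbers for the chains were 9 lower and 0 higher, and DESeq2 and limma also gave 8 lower and 0 higher. With libraries scaled on fibroblast markers, 2 chains were lower and the calls of the other 6 were lost. Endothelial markers were higher in KO and markers of several other cell types were lower, with values given after those of the chains. The median log2 fold change was -0.38 over the 9 chains and -0.02 over all genes. In bulk RNA, fewer cells that express a chain and less RNA of it per cell cannot be told apart.

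The 3 chains of collagen VI that form its common heterotrimer fell together. *Col6a1* (ENSMUSG00000001119, chr10:76708792-76726168 in mm10, minus strand) gave 162, 182 and 169 CPM in KO and 243, 226 and 235 CPM in WT. The highest KO library was below the lowest WT library, and the log2 fold change was -0.46 (SE 0.06, edgeR adjusted p = 7.1e-04), or 27.3% lower. *Col6a2* (ENSMUSG00000020241, chr10:76595762-76623630, minus strand), the neighbor of *Col6a1*, gave 96.7, 103 and 99.7 CPM in KO and 137, 140 and 138 CPM in WT. Its groups were well apart, with a mean of 99.7 ± 2.96 CPM against 138 ± 1.38 CPM (SD, n = 3) and a log2 fold change of -0.47 (SE 0.05, edgeR adjusted p = 2.6e-04). *Col6a3* (ENSMUSG00000048126, chr1:90765923-90843971, minus strand), the largest of the 3 chains, gave 161, 172 and 171 CPM in KO and 228, 217 and 216 CPM in WT. No library of one label reached into the other, and the log2 fold change was -0.39 (SE 0.05, edgeR adjusted p = 7.8e-04). The 95% intervals of the 3 chains, -0.59 to -0.33, -0.58 to -0.36 and -0.50 to -0.28 on the log2 scale, overlapped each other.

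Both chains of collagen VIII were lower, although their levels differed widely. *Col8a1* (ENSMUSG00000068196, chr16:57624258-57754737, minus strand) gave 646, 726 and 691 CPM in KO and 861, 879 and 849 CPM in WT. The groups did not overlap, and its log2 fold change of -0.33 (SE 0.05, edgeR adjusted p = 0.00197) was the smallest of the 8. *Col8a2* (ENSMUSG00000056174, chr4:126286793-126314330, plus strand) gave 22.5, 23.6 and 21.2 CPM in KO and 30.9, 27.5 and 28.5 CPM in WT. The groups were again apart, with a log2 fold change of -0.37 (SE 0.08, edgeR adjusted p = 0.0111) and a 95% interval of -0.56 to -0.18. Its adjusted p was the largest of the 8 called chains, and with each library left out in turn it ran from 0.0174 to 0.0460.

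The chains that bind to fibrils changed by similar amounts. *Col12a1* (ENSMUSG00000032332, chr9:79598991-79718831, minus strand) was the chain with the most counts, at 958, 1142 and 1132 CPM in KO and 1335, 1450 and 1384 CPM in WT. KO replicate 1 was the lowest library, the groups did not overlap, and the log2 fold change was -0.37 (SE 0.07, edgeR adjusted p = 0.00584). *Col14a1* (ENSMUSG00000022371, chr15:55307750-55520803, plus strand), the chain of the related FACIT collagen XIV, gave 333, 359 and 346 CPM in KO and 447, 447 and 457 CPM in WT. Its groups did not overlap either, and its log2 fold change was -0.38 (SE 0.04, edgeR adjusted p = 4.9e-04). *Col16a1* (ENSMUSG00000040690, chr4:130047840-130099283, plus strand) gave 245, 275 and 267 CPM in KO and 326, 343 and 352 CPM in WT. All 3 KO libraries were below the WT libraries, with a log2 fold change of -0.37 (SE 0.06, edgeR adjusted p = 0.00178).

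The transmembrane chain *Col23a1* (ENSMUSG00000063564, chr11:51289920-51583918, plus strand) gave 4.42, 2.48 and 3.29 CPM in KO and 5.88, 5.05 and 4.48 CPM in WT. The groups nearly touched, and on FPKM they overlapped, with 0.752 in the highest KO library and 0.741 in the lowest WT library. Its log2 fold change of -0.60 had a wide 95% interval, from -1.13 to -0.08, and the gene was not called (SE 0.23, edgeR adjusted p = 0.0818, unadjusted p = 0.0293). Without KO replicate 1 it was called, at -0.82 with an edgeR adjusted p of 0.0352. The difference of *Col23a1* was therefore not established with these 6 libraries.

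Read library by library on TMM-scaled CPM, every KO library was below every WT library for 9 of 9 chains tested, and for 22.4% of all genes tested. An exact two-sided permutation test of 3 against 3 libraries gave p = 0.1 for each of the 9 chains, the smallest value that this design allows. The chains share their libraries, so they are not 9 independent observations. Nothing in the labels says that the libraries came from separate animals, and p-values measure the spread between these samples, which may be technical.

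**Figure D2:**
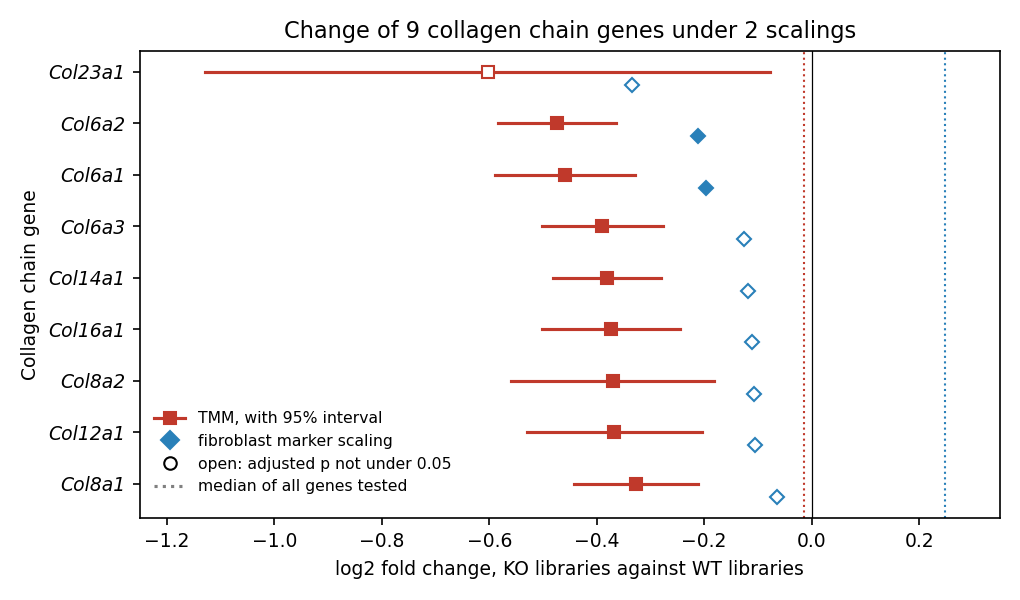
Log2 fold change of KO against WT libraries for the 9 chains tested (horizontal axis), as squares with 95% intervals under TMM scaling and as diamonds under a scaling that holds fibroblast markers level, with open symbols where the adjusted p was not under 0.05 and dotted lines at the median of all genes tested. All squares and diamonds lie below 0, 8 squares are filled, and 2 diamonds, *Col6a1* and *Col6a2*, are filled.

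Other cell types moved between the labels at the same time. Calls below (edgeR adjusted p under 0.05) stand beside shares of 17.7% higher and 12.5% lower among the 14084 genes that passed the filter. Of 15 endothelial markers tested, 13 were higher in KO and 0 lower (0 also at an unadjusted p under 0.05). Their median was 2.55 on the log2 scale, with a sum of 2216 to 3133 CPM in KO against 592 to 597 CPM in WT. None of the 15 was at 0 in all libraries, and the other 2, *Cldn5* and *Ptprb*, had log2 fold changes of 0.00 and 0.08. Markers of 3 other cell types were lower by about as much as the collagen chains, while neutrophil markers were mixed (median -0.41, 2 of 5 tested higher and 1 lower, overlapping sums of 17.6 to 22.5 CPM in KO and 17.7 to 19.2 CPM in WT). The median was -0.42 for cardiomyocyte markers (8 of 11 tested lower, sums of 818 to 909 CPM in KO and 1121 to 1133 CPM in WT), -0.39 for macrophage markers (7 of 12 rows lower and 1 higher, sums of 1265 to 1294 and 1529 to 1628 CPM, *Cd163* at 0) and -0.42 for mural cell markers (5 of 8 lower and 1 higher, sums of 656 to 732 and 903 to 920 CPM, *Higd1b* at 0). Fibroblast markers had a median of -0.31 (5 of 10 lower and 1 higher, sums of 1905 to 2087 CPM in KO and 2170 to 2194 CPM in WT). The summed CPM of the 10 chains was 2671 to 3000 in KO and 3577 to 3678 in WT. The part of these cell types in the change of the chains was not tested.

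When libraries were scaled so that the median ratio of the fibroblast markers was 1, the median log2 fold change of all genes moved from -0.02 to 0.25. All 9 chains were still below 0, with a median of -0.12, but only *Col6a1* (-0.20, edgeR adjusted p = 0.0242) and *Col6a2* (-0.21, edgeR adjusted p = 0.0252) passed the threshold. Under this scaling 1.36% of all genes tested were lower, so 2 of 9 chains is to be read beside that share. The others had edgeR adjusted p-values from 0.117 for *Col14a1* to 0.387 for *Col8a1*. The scaling moves all genes alike, so the distance of the chains' median from the median of all genes, -0.37, is the same under both by construction. The fall of *Col6a3*, *Col8a1*, *Col8a2*, *Col12a1*, *Col14a1* and *Col16a1* was measured relative to the TMM scaling of the library, and was not shown relative to the fibroblast markers.

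**Figure D3:**
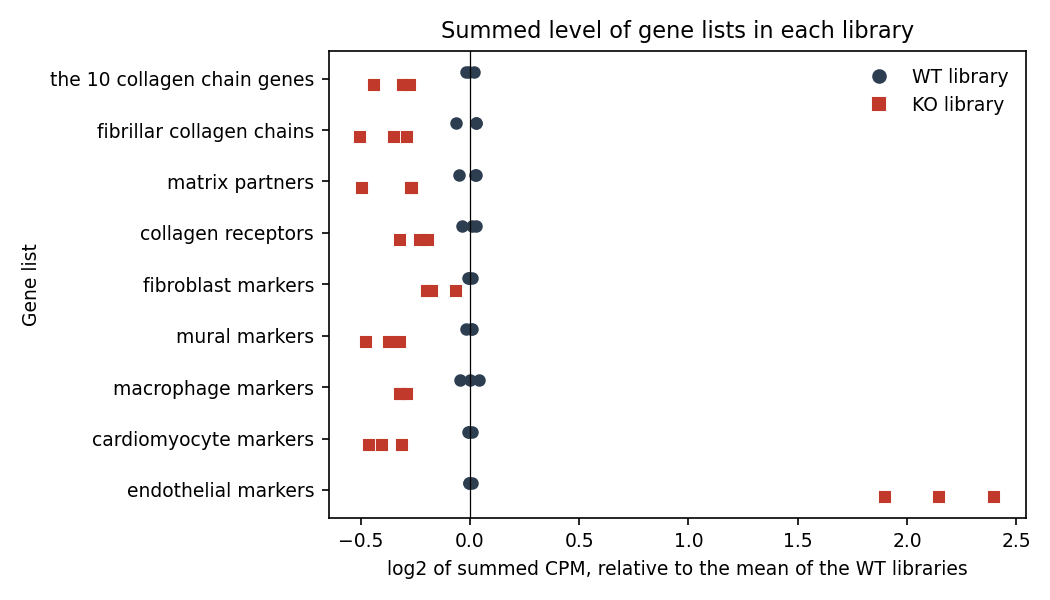
Summed CPM of each gene list in each library, on library totals without TMM factors, as log2 relative to the mean of the WT libraries (horizontal axis), for 3 WT and 3 KO libraries. The 10 collagen chain genes sum to 2671 to 3000 CPM in KO and 3577 to 3678 CPM in WT, while endothelial markers sum to 2216 to 3133 CPM in KO and 592 to 597 CPM in WT.

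As a share of the library the chains were small and their own proportions shifted little. They took 0.287% ± 0.0174 of all counts in KO and 0.362% ± 0.00504 in WT (SD, n = 3), and their summed FPKM was 331 ± 17.6 in KO and 418 ± 2.62 in WT. Of that sum, *Col8a1* made up 41.1% ± 0.226 in KO and 39.9% ± 0.435 in WT. *Col12a1* made up 18.6% under both labels, *Col14a1* 11.4% under both, and *Col16a1* 8.45% in KO and 8.47% in WT. The chains of collagen VI together made up 18.9% ± 0.333 in KO and 19.9% ± 0.668 in WT, and their libraries did not overlap (18.6% to 19.2% and 19.3% to 20.6%). The shares of collagen VIII, 42.6% ± 0.314 in KO and 41.4% ± 0.440 in WT, did not overlap either (42.2% to 42.8% and 40.9% to 41.6%). Among the chains of collagen VI, the shares of *Col6a1* (11.2% to 11.7% in KO and 11.7% to 12.8% in WT) and of *Col6a2* (3.53% to 3.73% and 3.86% to 3.89%) did not overlap, the former by a margin that rounding hides. These shares were described and not tested, and since they add up to a whole they are not independent of each other.

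Ratios of 2 chains within a library do not depend on how libraries are scaled, and 13 were compared. *Col6a1* and *Col6a2*, whose chains assemble into the same molecule, stood at 3.19 ± 0.0949 in KO and 3.16 ± 0.147 in WT on FPKM (SD, n = 3). In the 6 libraries this ratio ran from 3.02 to 3.31, with the KO libraries inside the range of the WT libraries. On raw counts the ratio was 1.71 in KO and 1.70 in WT, and per longest transcript 2.05 and 2.03, so its absolute size depends on the length used. *Col8a1* was 28.1 ± 1.77 times *Col8a2* in KO and 27.3 ± 1.89 times in WT, and *Col12a1* was 1.64 ± 0.108 times *Col14a1* in KO and 1.62 ± 0.0712 times in WT. The differences of the log2 ratios, KO minus WT, were 0.01 for *Col6a1* to *Col6a2* (exact permutation p = 1.0), 0.07 for *Col6a3* to *Col6a1* (exact p = 0.2), 0.04 for *Col8a1* to *Col8a2* (exact p = 0.7) and 0.01 for *Col12a1* to *Col14a1* (exact p = 0.9). The libraries of both labels overlapped in all 4 of these ratios. The ratio of *Col6a2* to *Col6a3*, which was not among the 13 and was not tested, did not overlap, at 0.947 to 0.970 in KO and 0.972 to 1.04 in WT on FPKM. A ratio of *Col6a6* to *Col6a3* could not be formed, because *Col6a6* had 0 counts in a library of each label.

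Each chain was also set against *Col1a1*, the main chain of collagen I, the fibrils to which FACITs bind. *Col1a1* gave 137884, 179513 and 196790 counts in KO and 225098, 261389 and 243943 counts in WT. Its groups did not overlap, and it fell by 0.44 on the log2 scale (SE 0.07, edgeR adjusted p = 0.00284). The difference of the log2 ratios was 0.12 for *Col8a1* (exact permutation p = 0.3), 0.07 for *Col12a1* (exact p = 0.1), 0.07 for *Col16a1* (exact p = 0.2) and 0.06 for *Col14a1* (exact p = 0.4). For the chains of collagen VI it was -0.01 for *Col6a1* (exact p = 0.8), -0.03 for *Col6a2* (exact p = 0.6) and 0.06 for *Col6a3* (exact p = 0.6). *Col8a2* was at 0.08 (exact p = 0.5) and *Col23a1* at -0.18 (exact p = 0.7). Only the ratio of *Col12a1* to *Col1a1* kept its KO libraries (-4.91, -4.91 and -4.84 on the log2 scale) above its WT libraries (-4.91, -4.97 and -5.00), by a margin that rounding hides. Adjusted over the 13 ratios, p-values ran from 0.867 to 1.0, and with 3 libraries a label an exact p cannot go below 0.1. The tests of single ratios therefore could not have passed 0.05 in this design, and they do not show that the proportions were equal.

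**Figure D4:**
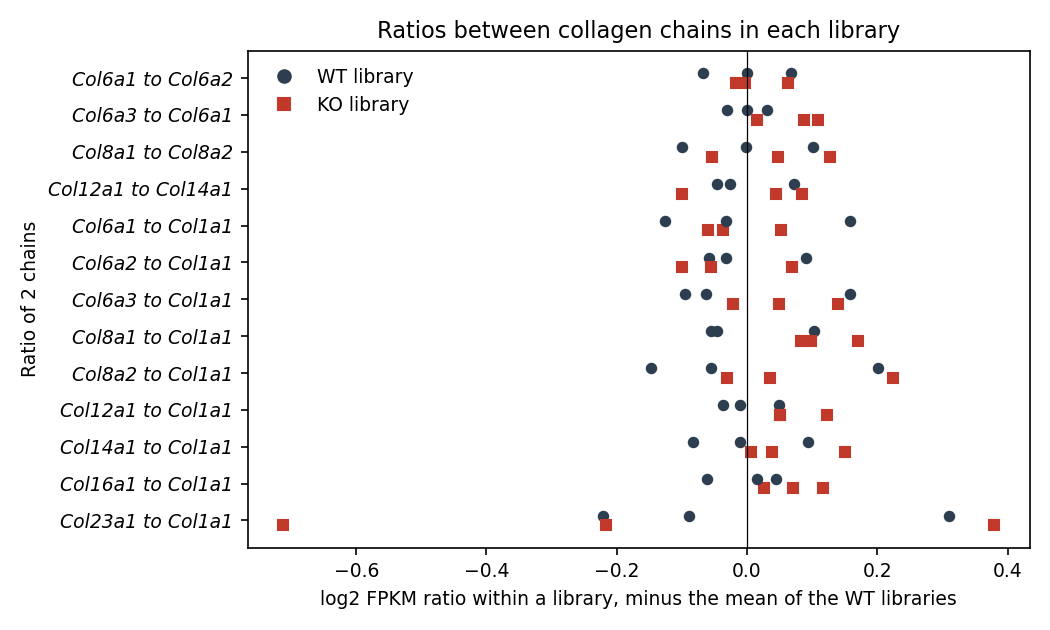
Log2 ratio of the FPKM of 2 chains within each library, minus the mean of the WT libraries (horizontal axis), for 13 ratios with 1 point for each of 3 WT and 3 KO libraries. WT and KO points overlap in every ratio except *Col12a1* to *Col1a1*, and the widest spread is that of *Col23a1* to *Col1a1*.

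The fibrillar collagens, on which the FACITs act, were compared by the same test. Of 11 genes tested, 8 were lower and 0 higher (edgeR adjusted p under 0.05), beside 12.5% and 17.7% of all genes tested, and under the fibroblast scaling all 8 calls were lost. The list had a median log2 fold change of -0.40. At an unadjusted p under 0.05 the numbers were also 8 and 0, and DESeq2 gave 8 and limma 7 lower, each with 0 higher. *Col27a1*, a fibrillar collagen of cartilage, had the lowest value among those called, at -0.56 (SE 0.16, edgeR adjusted p = 0.0321), with 159, 228 and 208 counts in KO and 355, 325 and 241 counts in WT. Its call was lost without KO replicate 1, KO replicate 3, WT replicate 1 or WT replicate 2, with edgeR adjusted p-values of 0.0951, 0.103, 0.0992 and 0.0855. It was also lost with limma (adjusted p of 0.0728 and 0.0791) and with the fibroblast scaling (edgeR adjusted p = 0.133), so that *Col27a1* was called in 9 of 16 alternatives. The 3 that did not pass, named after their values were seen, were *Col2a1*, *Col11a2* and *Col24a1*.

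Other chains of the same and neighboring classes were mostly measured at low counts. Of 13 listed, 12 were in the table and 4 passed the filter, among them *Col9a2* and *Col22a1*, which were named after their values were seen and were not called. *Col20a1*, a FACIT-like chain, was higher in KO, with 75, 58 and 66 counts against 8, 15 and 21 counts in WT and a log2 fold change of 2.25 (SE 0.32, edgeR adjusted p = 0.00146). *Col9a3*, a chain of the cartilage FACIT collagen IX, was also higher, with 29, 36 and 40 counts in KO against 18, 14 and 18 counts in WT and a log2 fold change of 1.13 (SE 0.23, edgeR adjusted p = 0.00766). Neither pair of groups overlapped. *Col20a1* overlaps another gene on its own strand, and *Col9a3* one on the opposite strand, and how reads of such pairs were assigned is not given in the sources used here. With edgeR, 2 of the 4 tested were thus higher and 0 lower, beside 17.7% and 12.5% of all genes tested. With so few genes, 0 lower is not far from the share of all genes. It was also 0 at an unadjusted p under 0.05 and with DESeq2 and limma.

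Among 12 receptors and binding proteins for collagens, 6 were lower and 2 higher (edgeR adjusted p under 0.05), beside 12.5% and 17.7% of all genes tested, so the number that was higher is near the share of all genes. The median log2 fold change was -0.36. *Mrc2*, an endocytic receptor that takes up collagen, was at -0.46 (SE 0.05, edgeR adjusted p = 3.1e-04), with 3594, 4308 and 4823 counts in KO and 5920, 6359 and 6057 counts in WT. *Cspg4* (NG2), a proteoglycan that binds collagen VI and marks pericytes, was at -0.43 (SE 0.10, edgeR adjusted p = 0.0156), and without WT replicate 2 its edgeR adjusted p was 0.0548. With the fibroblast scaling *Cspg4* was at -0.17 (edgeR adjusted p = 0.206) and was not called, while *Mrc2* was (-0.20, edgeR adjusted p = 0.0247). *Itga2*, a collagen-binding integrin chain, was higher by 1.31 (SE 0.22, edgeR adjusted p = 0.00274), with 203, 139 and 174 counts in KO against 68, 65 and 87 counts in WT. *Itga11*, another such chain, named after its value was seen, was lower, at -0.43 (SE 0.07, edgeR adjusted p = 0.00193). In WT it averaged 186 CPM, against 5.13 CPM for *Itga2*. *Antxr2*, a receptor for collagen VI, was higher by 0.30 (SE 0.08, edgeR adjusted p = 0.0275), with 1088, 964 and 1155 counts in KO against 899, 942 and 907 counts in WT. Its call was lost without WT replicate 1, 2 or 3, with edgeR adjusted p-values of 0.0814, 0.0722 and 0.0700. The 4 receptors not called, named after their values were seen, were *Itga1*, *Itga10*, *Ddr1* and *Lair1*.

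Matrix proteins that bind these collagens were tested as well. Of 13 listed, 9 passed the filter, and 8 were lower and 0 higher (edgeR adjusted p under 0.05), beside 12.5% and 17.7% of all genes tested. The counts of partners were the same at an unadjusted p under 0.05 and with DESeq2 and limma. The median log2 fold change was -0.40. *Matn2*, an adaptor protein that links matrix filaments, was at -0.51 (SE 0.10, edgeR adjusted p = 0.00598), with 309, 417 and 499 counts in KO and 581, 607 and 620 counts in WT. With the fibroblast scaling *Matn2* was at -0.24 (edgeR adjusted p = 0.0956) and was not called. *Bgn*, a small proteoglycan (biglycan) that binds collagen VI, was at -0.47 (SE 0.05, edgeR adjusted p = 3.8e-04), with 42787, 51864 and 55971 counts in KO and 71906, 77217 and 69378 counts in WT. It was called with the fibroblast scaling as well, at -0.21 (edgeR adjusted p = 0.0133). *Tnxb* (tenascin X), named after its value was seen, was the single gene not called, at -0.12 (edgeR adjusted p = 0.363). Under the fibroblast scaling 0 fibrillar collagens (3 at an unadjusted p under 0.05), 1 receptor and 1 matrix partner were lower. Over all genes tested, 1.36% were lower under that scaling (edgeR adjusted p under 0.05).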

How the data were processed

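RNA-seq of cardiac fibroblasts was performed on 3 libraries labelled KO and 3 labelled WT, on Day 7 after MI. Per the labels, the authors used stranded paired-end libraries and mapped reads to mm10 with HISAT2. GRCm38.p4 and edgeR are also named in the submitters' processing notes. The counting tool, annotation release and strand setting are not given in the sources used here. The authors deposited counts per gene, without normalization, and FPKM per gene, computed from those counts, gene length and library total. All 6 libraries of the table were used, and 0 columns belong to other samples.

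The quasi-likelihood test of edgeR 4.0.16 (R 4.3.3) was run on the counts with TMM factors and without covariates. Of 20854 genes with any count, 14084 passed filterByExpr, and p-values were adjusted over these by Benjamini-Hochberg, with a threshold of 0.05. The biological coefficient of variation was 10.9%. Pairs of libraries of 1 label differed in 22.4% to 31.7% of genes at an unadjusted chi-square p under 0.05, so none was a duplicate. A count of 0 allows up to 3 counts, or 0.196 to 0.249 CPM, which covers counting error only. Ratios were compared with exact two-sided permutation tests. Fold changes and counts of calls were recomputed without a filter, with a minimum mean CPM of 1, with library totals, upper quartile or relative log expression in place of TMM, with fibroblast marker scaling (the median ratio of these markers set to 1), with DESeq2 1.42.0, with limma 3.58.1 on log2(FPKM + 1) or log2(FPKM + 0.1), with a block for the replicate number, and without each library. Ratios were recomputed on CPM, with the block and without each library.

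The members and lists were chosen with earlier results of these data known. Named genes are all 10 members, *Kdm5b*, *Col1a1*, and in each related list up to 2 genes with the lowest and highest log2 fold changes past the threshold. *Vim* and *Pdgfra* were picked as examples, outside this rule. Lists are described by counts and medians, with no set test. The fit was also run on simulated counts, with genes drawn independently and far fewer of them changed than were called here. That run is therefore no support for the calls in these libraries. Level per longest transcript (GENCODE M21) was added after seeing the data. Plots were made in Python 3.11.15 (matplotlib 3.10.9).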

Additional observations from a re-analysis of the deposited data

How the results depend on the processing

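Fold changes of the 9 chains kept their direction in all 144 comparisons with 16 alternatives, and 137 kept their side of the threshold. The 6 calls that were lost were all lost with fibroblast marker scaling, and 1 was gained, that of *Col23a1* without KO replicate 1. With that scaling the counts of lower genes were 2 chains, 0 fibrillar collagens, 1 receptor and 1 matrix partner, the total of lower genes was 191 in place of 1760 and of higher genes 5795 in place of 2488, and the log2 fold change of *Kdm5b* turned to 0.0461 (edgeR adjusted p = 0.696). *Kdm5b* passed the threshold in 3 of 16 alternatives, with upper quartile scaling (edgeR adjusted p = 0.0324), without WT replicate 1 (0.0188) and with the replicate block (0.0271). The construction of the scaling sets this shift, since it raises all values in KO. With a library left out, 1131 to 1614 genes were lower, and receptors that were higher numbered 1 to 2.

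Differences of the log2 ratios turned in sign in 13 of 104 comparisons, none of them past a threshold. With 1 library left out, they ran from -0.0194 to 0.0476 for *Col6a1* to *Col6a2*, from -0.00906 to 0.0909 for *Col8a1* to *Col8a2*, from -0.0275 to 0.0649 for *Col12a1* to *Col14a1*, from -0.0777 to 0.0643 for *Col6a1* to *Col1a1*, from -0.0777 to 0.0167 for *Col6a2* to *Col1a1* and from -0.464 to 0.0817 for *Col23a1* to *Col1a1*. The labels share replicate numbers, but same-numbered libraries did not deviate together (correlations of 0.00, 0.00 and 0.03). With the replicate number as a block, the log2 fold change of *Col6a1* was -0.46 (edgeR adjusted p = 0.00440), all 8 calls stood, and 1591 genes were lower and 2316 higher. *Col6a6*, with 0 to 4 counts a library, was too low for a fold in these libraries.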
